A study of Mus musculus with 6 samples.

Results

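Spp1-expressing macrophages were picked out of single-cell RNA sequencing libraries of the mouse genioglossus, a muscle of the tongue whose pull keeps the upper airway open. A barcode with at least 300 genes detected was counted as one when it held at least 2 unique molecular identifiers (UMIs, one for each captured transcript) of Spp1, at least 2 of Lyz2, at least 2 summed over the macrophage genes Cd68, Csf1r and Adgre1, at most 1 summed over the resident macrophage genes Folr2, Cd209d, Cd209f and Cd209g, and at most 1 summed over the endothelial and fibroblast genes Pecam1, Cdh5 and Col1a2. The rule was met by 320 of the 56309 barcodes with at least 300 genes. These members lay in OSA 1 (40), OSA 2 (16), OSA 3 (263) and control 2 (1), so OSA 3 supplied most of them.

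The libraries were primary tissue of male mice, labelled as muscle cells though they hold many other types, in an obstructive sleep apnea (OSA) group taken 4 weeks after modelling and a control group, with 3 libraries each, all of batch 1. Obstructive sleep apnea is the repeated closing of the upper airway during sleep. How the apnea model was made, the strain, the age and the number of animals per library are not in the labels, so p-values here measure only the spread between libraries, which may be technical. Count matrices of OSA 1, OSA 2, OSA 3 and control 2 were used, and those of control 1 and control 3 were not analysed here.

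Spp1 encodes osteopontin, a secreted phosphoprotein that binds integrins and the hyaluronan receptor CD44 and that is made by bone cells, by some epithelia and, after injury, by macrophages. Macrophages with high Spp1 are known from damaged muscle, fibrotic lung, atherosclerotic plaques and tumours, where they often also carry transcripts for lipid uptake (Trem2, Gpnmb, Fabp5), lysosomal proteases and matrix enzymes. Resident macrophages of muscle and other tissues are instead known for Folr2, Lyve1 and scavenger receptors. In comparisons here the Spp1 macrophages are set against 2 other classes from the same libraries. The Spp1-low macrophages met every condition of the rule except that they held 0 or 1 Spp1 UMI (196, 190 and 651 barcodes in OSA 1, 2 and 3, and 47 in control 2). The resident macrophages held at least 2 UMIs of the Folr2 and Cd209 genes with 0 or 1 Spp1 UMI (60, 76 and 136 barcodes, and 109 in control 2).

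The 4 libraries held 78935595, 74007957 and 82184913 UMIs in OSA 1, 2 and 3 and 70217449 in control 2. Between 41 and 67 barcode sequences were shared by a pair of libraries over the 6 barcode lists, and 0 were shared by members of different libraries. Spp1 macrophages were deeper than the classes they are compared with: their median was 11898, 6524 and 9897 UMIs in OSA 1, 2 and 3, against 5642, 4236 and 4636 in Spp1-low macrophages and 6310, 5986 and 5332 in resident macrophages. All 10 general macrophage markers (among them Csf1r, Cd68, Adgre1, Mertk and the C1q genes) were detected in the members of each OSA library, with a summed level of 7589, 3443 and 6927 CPM (UMI counts scaled to the total of the class) against 8896, 7521 and 8626 CPM in Spp1-low macrophages. The rule itself asked for UMIs of Cd68, Csf1r and Adgre1 in both classes, so these genes carry no independent support for the label. Csf1r, the receptor for the macrophage growth factor CSF1, was at 0 in 3, 1 and 17 members of the 3 OSA libraries. The 8 dendritic markers, which include Itgax, summed to 302, 101 and 317 CPM in the members of OSA 1, 2 and 3, against 116, 101 and 145 CPM in Spp1-low macrophages. Itgax alone supplied 275, 77.9 and 311 CPM of these sums in members and 86.2, 35.6 and 95.6 CPM in Spp1-low macrophages, so the higher sums in members came from Itgax. Of the 8 markers, 6, 3 and 4 were detected in members. Siglech was at 0 in the members of all 3 OSA libraries, and Xcr1, Clec9a and Cd209a were at 0 in those of OSA 2 and 3 but not of OSA 1. The part of dendritic transcripts in the results below was not tested. The summed levels of the T and NK, B and mast lists stayed at or under 45.5, 8.28 and 2.07 CPM in OSA members. Scrublet, a doublet caller, marked 2 of the 320 members as likely pairs of cells, both in OSA 3.

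A pair of findings set limits on the label. The 1 member in control 2 held 12 Spp1 UMIs among 6194, but also 31 UMIs of Mbp, a Schwann cell gene. It held 2 Csf1r UMIs, 7 C1qa UMIs and 0 of Cd68, Adgre1, Trem2 and Gpnmb. So no barcode of control 2 matched both the rule and the macrophage markers without Schwann cell transcripts, and whether this barcode holds a macrophage was not tested. In OSA 3, 10 members carried 26992 CPM of S100a9, a neutrophil alarmin, with 0 UMIs of Csf1r and Adgre1 and a median of only 2428 UMIs. They met the rule through 32 Cd68 UMIs and stand apart from the other members, as described with the subgroups.

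Spp1 macrophages were a larger share of the OSA libraries than of the control library, by amounts that differed several-fold between OSA libraries. They made up 0.255% of barcodes in OSA 1 (95% exact binomial interval 0.182 to 0.347), 0.127% in OSA 2 (0.0727 to 0.206) and 1.84% in OSA 3 (1.62 to 2.07), against 0.0073% in control 2 (0.000185 to 0.0407). No OSA interval reached that of control 2, and the OSA 3 share lay far above the other two. Among macrophages outside the resident class, the share that met the Spp1 condition was 16.9% in OSA 1 (40 of 236; 12.4 to 22.4), 7.77% in OSA 2 (16 of 206; 4.50 to 12.3) and 28.8% in OSA 3 (263 of 914; 25.9 to 31.8), against 2.08% in control 2 (1 of 48; 0.0527 to 11.1). On that denominator the intervals of OSA 2 and control 2 overlapped. These intervals cover counting error only. The OSA mean exceeded the control share by 0.733 percentage points of all barcodes (OSA mean 0.740 ± 0.953, SD, n = 3) and by 15.8 points of the non-resident macrophages (OSA mean 17.8 ± 10.5). In a two-sided exact permutation test over libraries both gave p = 0.50, and with 1 control library the smallest p this design allows is 0.25, so no call can be made. Without OSA 3 the differences were 0.184 and 10.3 points. The whole macrophage population outside the resident class differed too, at 236, 206 and 914 barcodes in OSA 1, 2 and 3 against 48 in control 2, so the 2 shares do not carry the same information.

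**Figure D1:**
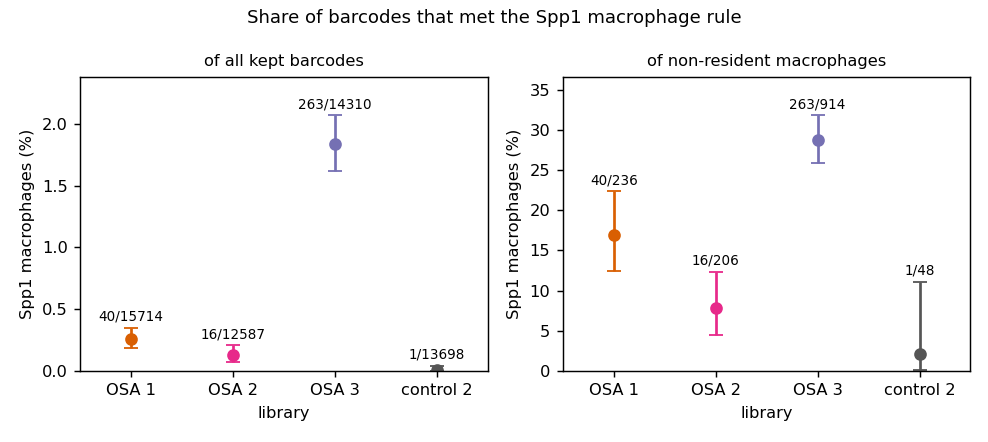
Share of Spp1 macrophages in each library, as a percent of all barcodes with at least 300 genes (left) and of macrophages outside the resident class (right). Points are shares, bars are 95% exact binomial intervals and the fractions are barcode counts. OSA 3 stands highest in both panels at 1.84% and 28.8%, and control 2 holds 1 barcode.

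The rule chose members by Spp1 itself, so the levels of Spp1 are a description. Its median was 8, 6.5 and 7 UMIs per member in OSA 1, 2 and 3, with upper quartiles of 23.5, 16 and 20 and highest values of 165, 39 and 384 UMIs. Expression was concentrated in few cells: the 4, 2 and 27 members with most Spp1 held 51.6%, 36.6% and 54.3% of the members' Spp1 UMIs. At the other end, 7, 5 and 48 members sat on the threshold with exactly 2 UMIs, and 22, 15 and 123 macrophages just outside it held exactly 1 (0 and 1 in control 2). The class as a whole carried 1782, 1277 and 1930 CPM of Spp1, against 18.4, 14.0 and 35.9 CPM in Spp1-low macrophages and 9.39, 5.44 and 27.5 CPM in endothelial barcodes, which should lack the gene. In the Spp1-low macrophages of OSA 3, 18.9% held a Spp1 UMI, against 6.67% of endothelial barcodes there at median depths of 4636 and 2782 UMIs.

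**Figure D2:**
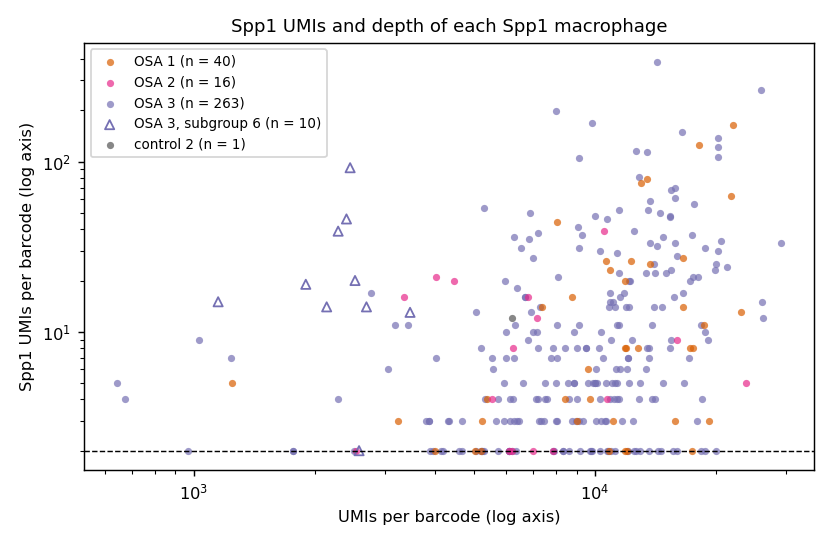
Spp1 UMIs (log axis) against all UMIs (log axis) of each of the 320 members, coloured by library, with the dashed line at the threshold of 2 UMIs. Members spread up to 384 Spp1 UMIs, and the triangles mark the 10 S100a9-rich members of OSA 3 (subgroup 6), which have many Spp1 UMIs at a median depth of 2428.

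The members with most and least Spp1 also differed in other transcripts, not in the same way in each library. In OSA 3 the 67 members with 20 or more Spp1 UMIs carried 3304 CPM of Gpnmb, 898 of Trem2 and 2156 of Fabp5, against 1407, 517 and 1156 CPM in the 76 members with 2 or 3 UMIs. The MHC class II gene H2-Ab1 ran the other way in OSA 3, at 395.5 CPM in the members with most Spp1 and 1112 CPM in those with least. In OSA 1, Gpnmb stood at 4496 CPM in the 12 members with 20 or more Spp1 UMIs and 2974 CPM in the 13 with 2 or 3, and H2-Ab1 at 972 and 2091 CPM. Fabp5 had the opposite order in OSA 1, at 1638 and 2098 CPM. OSA 2 had 3 and 5 such members, and there Gpnmb (263 and 1850 CPM), Fabp5 (52.6 and 437 CPM) and H2-Ab1 (999.8 and 0 CPM) all ran opposite to OSA 3. Trem2 was higher in the members with most Spp1 in each of the 3 libraries, at 995 against 653 CPM in OSA 1 and 842 against 437 CPM in OSA 2. Depth moved with the Spp1 level as well, with medians of 13707 and 7868 UMIs in those members of OSA 3, and its part in these differences was not tested.

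Mt3 and Saa3 are the other markers that named the class, and they marked only some members. Mt3, a metallothionein best known from brain, was detected in 13 of 40 members of OSA 1 (32.5%, 18.6 to 49.1), 0 of 16 in OSA 2 and 56 of 263 in OSA 3 (21.3%), against 5.98%, 3.68% and 3.72% of endothelial barcodes. Its UMIs were confined to few cells: 6, 0 and 17 members had 3 or more, with up to 167 UMIs in a single OSA 1 member. The summed level was 658, 0 and 138 CPM in the Spp1 macrophages of OSA 1, 2 and 3, against 6.70, 48.7 and 32.6 CPM in Spp1-low macrophages, so OSA 2 showed the reverse order. After each barcode was thinned to 2000 UMIs, Mt3 was left in 20.5%, 0% and 5.12% of members, against 1.16%, 3.51% and 3.03% of Spp1-low macrophages, 3.45%, 0% and 5.43% of resident macrophages and 3.67%, 1.83% and 2.68% of endothelial barcodes. At equal depth the OSA 3 members thus did not exceed the resident macrophages of that library in this share. Saa3, an acute-phase serum amyloid A protein, was detected in 15 of 40 (37.5%), 4 of 16 (25%) and 120 of 263 (45.6%) members, against 17.3%, 8.42% and 23.3% of Spp1-low macrophages and 6.94%, 1.18% and 7.78% of endothelial barcodes. As a level Saa3 overlapped between the classes, at 289.7, 226 and 478 CPM in Spp1 macrophages against 311, 183 and 335 CPM in Spp1-low macrophages. In control 2, 0 of 47 Spp1-low macrophages held a Saa3 UMI. Both markers together were found in 8, 0 and 25 members.

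To describe the rest of the transcriptome, UMI counts were summed per library over the members and over the Spp1-low macrophages, and the sums were compared by edgeR's quasi-likelihood test, with library as a block and a threshold of 0.05 on p after Benjamini-Hochberg adjustment over all genes tested. The 12 genes of the rule were left out, and Mt3 and Saa3 are described without a test. The fit took the libraries with at least 20 members, OSA 1 and OSA 3, which leaves 1 residual degree of freedom, so most of the spread was borrowed from the trend across genes. Of 9884 genes tested, 1093 (11.1%) passed, 531 higher (5.37%) and 562 lower (5.69%) in Spp1 macrophages. With the 16 members of OSA 2 added, 425 of 8361 genes passed (5.08%), 191 higher (2.28%) and 234 lower (2.80%). Of the 1093 genes, 1028 were tested in that fit, all 1028 had the same direction and 424 passed again. A fit of OSA 2 and OSA 3 gave 114 calls and one of OSA 1 and OSA 2 gave 140. With sums scaled by their totals alone, 31.6% of the called genes were higher, against 48.6% with TMM.

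Members were deeper than Spp1-low macrophages, and the calls depended on depth. Where both classes were kept to barcodes of 3000 to 10000 UMIs, 13, 11 and 114 members remained, and 17 of 7404 genes passed (0.230%) with OSA 1 and 3. With all 3 OSA libraries 74 of 7141 passed in that range (1.04%), 31 higher (0.434%) and 43 lower (0.602%). Directions held for most genes in that range: 961 of the 994 still tested of the 1093 moved the same way, with a median size 0.726 times that of the full classes. Members were also fewer there, so the part of depth and the part of number in the lost calls were not tested. Below, a gene is said to rise or fall when it passed with OSA 1 and OSA 3, the levels of OSA 2 are given beside it, and adjusted p-values with all 3 OSA libraries follow those of the test.

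The genes of lipid-associated macrophages, which take up and store lipid, rose together. Of the 15 on that list, 14 rose and 0 fell (median log2 difference 1.04, against -0.01 over all genes tested), 12 rose with all 3 OSA libraries, and all 15 were higher within 3000 to 10000 UMIs of all 3 OSA libraries, where 5 passed. Trem2, a lipid receptor, stood at 829.8, 350.5 and 714 CPM in the Spp1 macrophages of OSA 1, 2 and 3, against 248, 99.2 and 310.4 CPM in Spp1-low macrophages. The 2 classes did not overlap, and the log2 difference was 1.54 ± 0.11 (SE; edgeR's quasi-likelihood test, Benjamini-Hochberg adjusted p = 2.18e-40, and 4.77e-05 with all 3 OSA libraries). It was detected in 92.5%, 81.2% and 89.4% of members, against 49.5%, 35.3% and 54.4% of Spp1-low macrophages in the OSA libraries and 23.4% in control 2, and in 1.52%, 0.951% and 5.56% of endothelial barcodes of the OSA libraries. Thinned to 2000 UMIs per barcode, it was left in 76.9%, 62.5% and 68.1% of members, against 28.9%, 19.3% and 35.5% of Spp1-low macrophages. Fabp5, a fatty acid binding protein, had 1697, 397 and 1596 CPM against 464, 229 and 601 CPM. Its level in OSA 2 members lay within the range of the Spp1-low sums, while within each library it was higher in members (log2 difference 1.72 ± 0.09; edgeR's adjusted p = 1.10e-79 and 0.00175). Unlike Trem2, Fabp5 was also abundant in endothelial barcodes, at 507, 427 and 450 CPM in OSA 1, 2 and 3.

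Other rises on that list covered galectin-3 (Lgals3, 4329, 2898 and 4400 CPM in Spp1 macrophages against 1755, 1435 and 2222 CPM in Spp1-low macrophages), the tetraspanins Cd9 and Cd63, lipoprotein lipase (Lpl), the scavenger receptor Cd36, acid lipase (Lipa), and the cathepsins Ctsd and Ctsb. Lgals3, Ctsd and Lpl did not overlap between the classes and had log2 differences of 1.23, 1.28 and 1.30. Cd36 was higher in endothelial barcodes (678, 457 and 363 CPM in OSA 1, 2 and 3) than in members (468, 350.5 and 273 CPM). Apoe, the apolipoprotein that carries lipid out of macrophages, rose by a smaller 0.36, with 8265, 3754 and 8760 CPM in Spp1 macrophages against 6040, 2057 and 8236 CPM in Spp1-low macrophages, and lay at -0.22 after thinning to 2000 UMIs. Fabp4 and Cd63 did not pass with all 3 OSA libraries (edgeR's adjusted p = 0.522 and 0.0732). Gpnmb, a glycoprotein of phagocytic macrophages, was the one gene of the list that missed the threshold. It had the largest difference of the list, 2.87 ± 0.76 (edgeR's adjusted p = 0.472), with 3313, 1285 and 2326 CPM in Spp1 macrophages against 279.6, 61.8 and 545 CPM in Spp1-low macrophages and 5.12 CPM in those of control 2. Its classes did not overlap, and it was detected in 75%, 62.5% and 80.2% of members against 33.2%, 15.8% and 46.9% of Spp1-low macrophages and 4.19%, 2.94% and 13.1% of endothelial barcodes. Thinned to 2000 UMIs, those shares were 61.5%, 56.2% and 63.4% of members against 25.4%, 12.3% and 37.4% of Spp1-low macrophages.

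**Figure D3:**
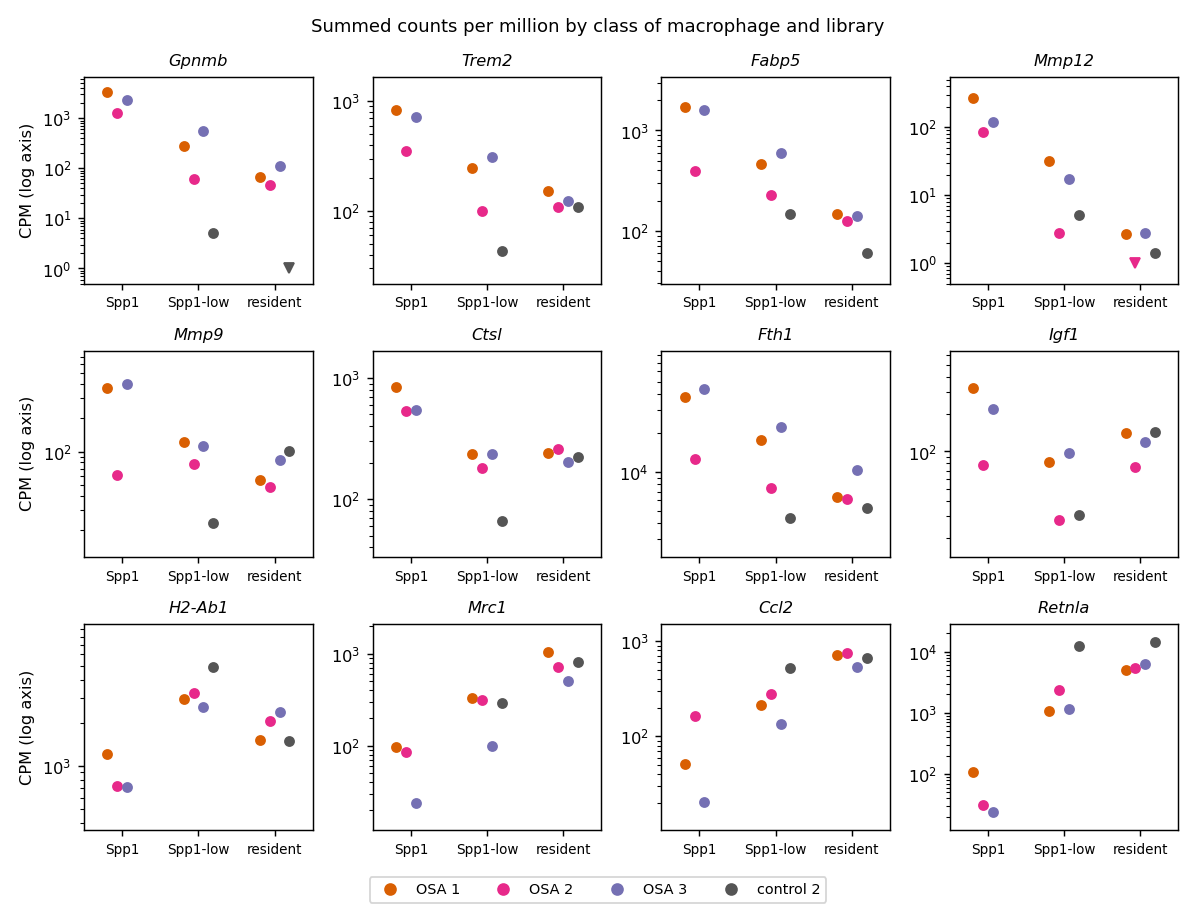
Summed level (CPM, log axis) of 12 genes in the Spp1 macrophages, the Spp1-low macrophages and the resident macrophages of each library; downward triangles mark sums under 1 CPM, drawn at 1. Gpnmb, Trem2, Mmp12 and Ctsl stand highest in the Spp1 macrophages of every OSA library, and H2-Ab1, Mrc1 and Retnla lowest. The single member of control 2 is not drawn.

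Most lysosomal genes were higher too, though less evenly within the depth window and after thinning. Of 14 tested, 9 rose and 0 fell, and 7 rose with all 3 OSA libraries. The 9 included the proteases Ctsl, Ctss and Ctsz, the sphingolipid activator Psap and the proton pump subunit Atp6v0d2. Within the depth window of all 3 OSA libraries, 11 of the 14 were higher and 3 lower, and 2 rose (median 0.38). After thinning with all 3 OSA libraries, 8 were higher and 6 lower, and 6 rose and 0 fell (median 0.31). Ctsl stood at 842, 529.7 and 540 CPM in Spp1 macrophages against 234, 181 and 235 CPM in Spp1-low macrophages, a difference without overlap (1.59 ± 0.12; edgeR's adjusted p = 1.39e-38 and 4.87e-05). Atp6v0d2 had 172, 15.6 and 83.8 CPM against 23.4, 3.75 and 18.6 CPM, where the OSA 2 members lay inside the Spp1-low range (2.52 ± 0.21; edgeR's adjusted p = 1.74e-30 and 5.42e-05). The lysosomal growth factor precursor Grn rose with OSA 1 and 3 (0.40) and lay at -0.06 without OSA 1, where OSA 2 and 3 were used. Atp6v0d2 also belongs to the osteoclast list, the genes of the bone-resorbing cell of the same lineage. There 3 of 7 genes rose, tartrate-resistant phosphatase (Acp5), gelatinase B (Mmp9) and Atp6v0d2, and 1 fell, the RANK receptor Tnfrsf11a (-0.58 ± 0.20; edgeR's adjusted p = 0.0323 and 0.335). Cathepsin K (Ctsk) had 399, 31.2 and 192 CPM in Spp1 macrophages against 24.3, 11.2 and 56.8 CPM in Spp1-low macrophages and did not pass (2.62 ± 1.02; edgeR's adjusted p = 0.566).

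Among matrix genes, 5 of 13 rose and 3 fell, and 3 rose and 1 fell with all 3 OSA libraries. Mmp12, the macrophage elastase, had the largest rise among the genes that passed and averaged 5 or more on the log2 CPM scale, at 273, 85.7 and 119 CPM in Spp1 macrophages against 31.8, 2.81 and 17.2 CPM in Spp1-low macrophages and 5.12 CPM in those of control 2. The classes did not overlap (3.01 ± 0.19; edgeR's adjusted p = 1.38e-54 and 1.33e-05). Mmp9 had 366, 62.3 and 396 CPM against 120.5, 77.7 and 113 CPM and was lower in members of OSA 2 (1.81 ± 0.14; edgeR's adjusted p = 4.56e-37 and 0.0432). Fibronectin (Fn1), a matrix protein that macrophages can secrete, had 875, 1379 and 1271 CPM against 567, 706 and 626 CPM without overlap (0.93 ± 0.09; edgeR's adjusted p = 1.41e-20 and 3.90e-04). Mmp19 and the inhibitor Timp2 also rose with OSA 1 and 3 (0.61 and 0.37), but Mmp19 lay at -0.05 without OSA 3 and Timp2 at -0.06 without OSA 1. Tgfbi, versican (Vcan) and the neutrophil collagenase Mmp8 fell, of which Tgfbi fell with all 3 OSA libraries (-0.62 ± 0.11; edgeR's adjusted p = 5.41e-07 and 0.0337).

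Of 12 growth factors, 3 rose and 2 fell, and 1 rose with all 3 OSA libraries. That one was Igf1, insulin-like growth factor 1, a known signal from macrophages to regenerating muscle. It stood at 327, 77.9 and 221 CPM in Spp1 macrophages against 82.0, 28.1 and 97.3 CPM in Spp1-low macrophages and 30.7 CPM in those of control 2. Members were higher within every OSA library, though the OSA 2 members lay inside the Spp1-low range (1.59 ± 0.14; edgeR's adjusted p = 8.30e-26 and 3.23e-04). Vegfa rose with OSA 1 and 3 (0.56 ± 0.15; edgeR's adjusted p = 0.00234 and 0.0589), as did Grn, and Hbegf and Pdgfc fell. Tgfb1, the main profibrotic factor of macrophages, was at 201, 218 and 213 CPM against 235, 294 and 208 CPM and did not pass (0.02 ± 0.13; edgeR's adjusted p = 0.968).

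Among the receptors that osteopontin binds, 0 of 7 tested rose and 1 fell, the integrin subunit Itga9 (-0.96 ± 0.20; edgeR's adjusted p = 3.79e-05 and 0.00848). CD44 had 482, 421 and 314 CPM in Spp1 macrophages against 525, 493 and 337 CPM in Spp1-low macrophages and did not pass (-0.02 ± 0.12; edgeR's adjusted p = 0.953).

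Glycolytic enzymes rose together. On the list of 22 hypoxia and glycolysis genes tested, 9 rose and 1 fell, and the same 9 rose with all 3 OSA libraries: the glucose transporter Slc2a1, the enzymes Tpi1, Gapdh, Pgk1, Pgam1, Eno1, Pkm and Ldha, and the cytokine Mif. Gapdh had 1852, 2718 and 2281 CPM in Spp1 macrophages against 1239, 1451 and 1766 CPM in Spp1-low macrophages, without overlap (0.56 ± 0.07; edgeR's adjusted p = 6.26e-12 and 0.00125). Pgam1 had 317, 265 and 239.9 CPM against 151, 105 and 142 CPM, also without overlap (0.98 ± 0.13; edgeR's adjusted p = 3.38e-11 and 0.00106). The median difference over the list was 0.44. Hif1a (-0.25 ± 0.17), Bnip3 (0.18 ± 0.23), Pdk1 (-0.20 ± 0.31) and Egln3 (-0.30 ± 0.44) did not pass (edgeR's adjusted p = 0.446, 0.735, 0.809 and 0.781), and hexokinase 2 (Hk2) fell (-0.37; edgeR's adjusted p = 0.0473 and 0.229). Within 3000 to 10000 UMIs of all 3 OSA libraries, 16 of 20 genes of the list were higher and 1 passed.

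Iron storage and antioxidant genes were higher as well. The ferritin chains Fth1 and Ftl1, which store iron, and Slc11a1, the iron and manganese transporter of the phagosome, were the 3 of 9 metal-handling genes that rose, and 0 fell. With all 3 OSA libraries 2 of 8 rose and 0 fell, with 3 higher and 5 lower. The list median was then -0.09, and -0.25 within 3000 to 10000 UMIs. Fth1 reached 38363, 12595 and 43552 CPM in Spp1 macrophages against 17738, 7489 and 22283 CPM in Spp1-low macrophages and 4375 CPM in those of control 2 (1.13 ± 0.04; edgeR's adjusted p = 2.38e-206 and 3.61e-05). The OSA libraries differed among themselves in both classes, with OSA 2 lowest. Mt1 and Mt2, the common metallothioneins, were at -0.03 and 0.04 and did not pass (edgeR's adjusted p = 0.892 and 0.871). On the list of NRF2 targets and antioxidants, 6 of 12 rose, 0 fell, and 4 rose with all 3 OSA libraries, the peroxide-reducing Prdx1 and Gpx1, thioredoxin (Txn1) and the glutathione synthesis subunit Gclm. Prdx1 had 1680, 569 and 1351 CPM against 821, 233 and 456 CPM and was higher in members of every library (1.40 ± 0.09; edgeR's adjusted p = 3.28e-49 and 4.87e-05). Gpx1 lay at -0.03 within 3000 to 10000 UMIs with OSA 1 and 3. The 9 mitochondrially encoded genes had a median difference of 0.92 with 7 rising, at low levels of up to 170.3 CPM in the members. Only mt-Co1 and mt-Nd1 rose with all 3 OSA libraries, 1 of them at the edge of the threshold (edgeR's adjusted p = 0.00178 and 0.0498), mt-Co3 lay at -0.22 without OSA 3, and the median within 3000 to 10000 UMIs of all 3 was 0.11.

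Genes of antigen presentation were lower. All 11 genes of the MHC class II list fell (median -1.48), and all 11 fell with all 3 OSA libraries. H2-Ab1, the beta chain of the presenting molecule, had 1211, 724 and 709.9 CPM in Spp1 macrophages against 2919, 3213 and 2566 CPM in Spp1-low macrophages and 4890 CPM in those of control 2. The classes did not overlap (-1.48 ± 0.08; edgeR's adjusted p = 6.82e-57 and 7.09e-04). Its chaperone Cd74 had 3197, 2578 and 2321 CPM against 8565, 10563 and 8150 CPM (-1.53 ± 0.06; edgeR's adjusted p = 2.30e-129 and 4.92e-05), and the transactivator Ciita and the costimulators Cd86 and Cd40 fell too. Within 3000 to 10000 UMIs of all 3 OSA libraries, 10 of 10 tested were lower and 5 passed, with a median of -1.74.

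Genes of resident and alternatively activated macrophages were lower. Of 11 resident macrophage genes outside the rule, 9 fell and 0 rose in both fits (median -1.32). Lyve1, the hyaluronan receptor of perivascular macrophages, had 0, 15.6 and 5.99 CPM in Spp1 macrophages against 119.7, 262 and 88.9 CPM in Spp1-low macrophages (-4.14 ± 0.30; edgeR's adjusted p = 7.96e-41 and 1.53e-05), and Cbr2, a carbonyl reductase, had 24.8, 0 and 5.61 CPM against 86.2, 299.6 and 141 CPM. Neither overlapped. The rule allowed 1 UMI of Folr2 and the Cd209 genes in both classes, so barcodes near that limit may be divided unequally between them, which was not tested. Of 10 alternative activation genes, 8 fell and 1 rose, and 7 fell and 0 rose with all 3 OSA libraries. The mannose receptor Mrc1 had 97.3, 85.7 and 23.9 CPM against 329, 312 and 98.2 CPM (-1.82 ± 0.17; edgeR's adjusted p = 4.60e-23 and 4.85e-05). Retnla, a secreted product of interleukin 4 signalling, had 108, 31.2 and 23.9 CPM against 1060, 2405 and 1168 CPM and 12414 CPM in Spp1-low macrophages of control 2, and its log2 difference of -4.52 did not pass (edgeR's adjusted p = 0.462 and 0.15). Arg1, arginase, was the gene that rose with OSA 1 and 3 (2.03 ± 0.35; edgeR's adjusted p = 2.69e-07 and 0.286), at 43.5, 265 and 21.7 CPM in Spp1 macrophages against 4.18, 232 and 8.16 CPM in Spp1-low macrophages, and lay at -0.20 within 3000 to 10000 UMIs of all 3 OSA libraries.

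Of the 16 chemokines tested, 9 fell and 2 rose, and 7 fell and 0 rose with all 3 OSA libraries. Ccl2, the ligand of CCR2, had 51.7, 164 and 20.6 CPM in Spp1 macrophages against 212, 276 and 134 CPM in Spp1-low macrophages and 529.9 CPM in those of control 2 (-2.37 ± 0.19; edgeR's adjusted p = 1.23e-31 and 0.0017). OSA 2 members lay inside the Spp1-low range. Ccl7 fell by 2.82 and Ccl12 by 4.08 on the log2 scale, and Ccl3, Ccl5, Ccl8 and Pf4 fell with all 3 OSA libraries too. Ccl6 and Cxcl1 rose with OSA 1 and 3 (0.47 and 0.36), but lay at -0.10 and -0.03 without OSA 1, and Cxcl1 at -0.30 without OSA 3. Cxcl2, a neutrophil attractant, was at 4441, 2524 and 3899 CPM against 5070, 3721 and 4278 CPM and did not pass (-0.08 ± 0.06; edgeR's adjusted p = 0.522). Among 8 receptors, Ccr1 and Cxcr4 fell and 0 rose.

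Of 16 inflammatory cytokines and sensors, 2 rose and 5 fell, and with all 3 OSA libraries 1 rose, the lectin Clec4d (0.81 ± 0.13; edgeR's adjusted p = 2.65e-08 and 0.0204), and 0 fell. Il1b illustrates the spread between libraries: members had 484, 1348 and 274 CPM against 787, 495 and 549 CPM in Spp1-low macrophages, so it was lower in OSA 1 and 3 and higher in OSA 2. Its fall with OSA 1 and 3 (-0.77 ± 0.11; edgeR's adjusted p = 1.68e-10 and 0.972) lay at 0.17 without OSA 1 and at 0.37 without OSA 3. Nlrp3, the inflammasome sensor, fell by 0.43 on the log2 scale with OSA 1 and 3 and lay at 0.04 without OSA 3. Lcn2 and Clec4e, which neutrophils also express, fell by 1.07 and 0.46 on the log2 scale with OSA 1 and 3. The neutrophil marker list summed to 84.8, 615 and 421 CPM in Spp1 macrophages against 2084, 4147 and 489 CPM in Spp1-low macrophages. With barcodes of 5 or more S100a8 and S100a9 UMIs left out of both classes, Lcn2 lay at 1.00 and Clec4e at 0.27. On the complement list 1 of 10 rose (Cfb, factor B) and 2 fell (C1qa and properdin, Cfp), and on the interferon list 1 of 12 rose (Bst2) and 2 fell (Irf1 and Ifi27l2a). With all 3 OSA libraries 0 rose and 1 fell on each of these lists. Over all genes tested with OSA 1 and 3, 5.37% rose and 5.69% fell.

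Immediate early genes, which respond within minutes to stimulation or tissue handling, fell. Of 17 immediate early and heat shock genes, 11 fell and 0 rose, and 9 fell with all 3 OSA libraries (median -0.50). Jun had 664, 366 and 476 CPM in Spp1 macrophages against 1279, 1037 and 808 CPM in Spp1-low macrophages, without overlap (-0.76 ± 0.09; edgeR's adjusted p = 1.34e-13 and 0.00147). The heat shock genes Hspa1a, Hspa1b, Hsp90aa1 and Dnajb1 did not pass. Cell cycle genes were sparse. Of 15 on the list 4 were tested, 1 fell, and only 0, 1 and 3 members of OSA 1, 2 and 3 held 3 or more UMIs of Top2a, the topoisomerase of dividing cells.

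**Figure D4:**
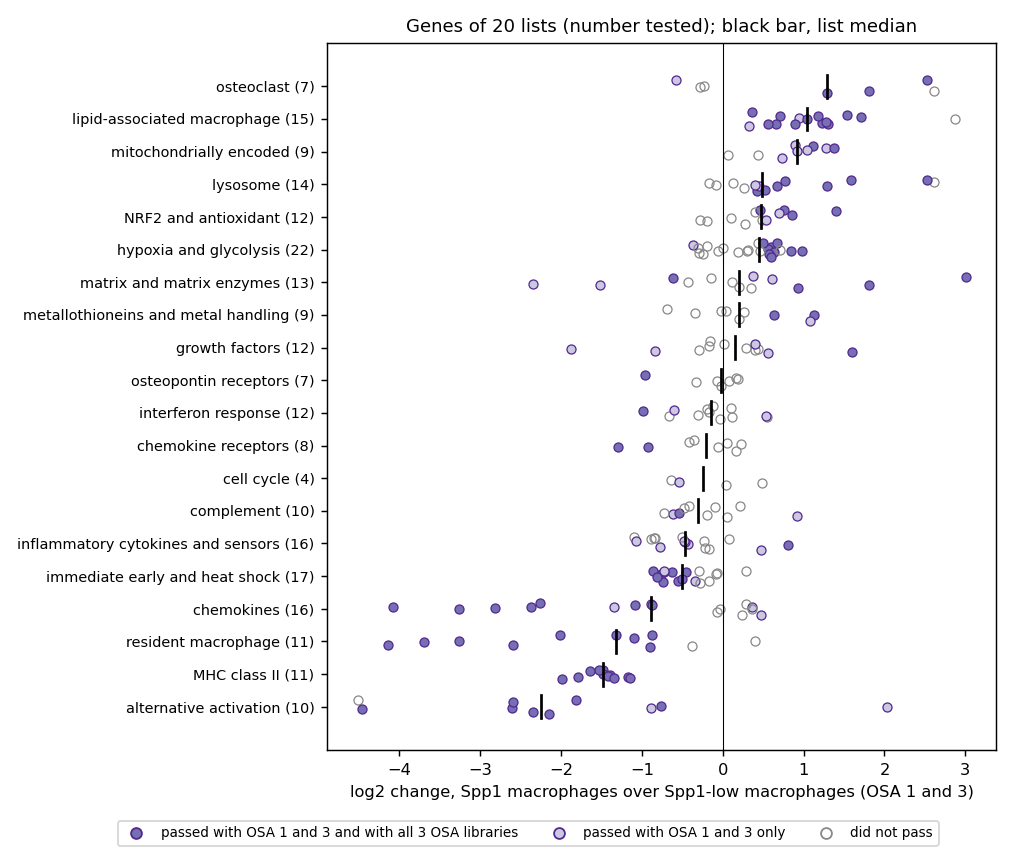
Log2 difference, Spp1 macrophages over Spp1-low macrophages (OSA 1 and 3), of each tested gene on 20 lists, ordered by list median (black bar), with the number of genes tested in brackets. Dark points passed in both fits, pale points with OSA 1 and 3 only, and open points did not pass. Lipid-associated genes lie to the right (median 1.04) and MHC class II genes to the left (median -1.48).

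Outside the lists, the genes at that mean level with the largest rises after Mmp12 and Atp6v0d2 were Vsig8, an immunoglobulin-domain surface protein, Rnf128, a ubiquitin ligase, Ksr2, a scaffold of the MAP kinase pathway, Wfs1, the endoplasmic reticulum protein wolframin, and Layn, the hyaluronan receptor layilin. Vsig8 had 91.1, 85.7 and 108 CPM in Spp1 macrophages against 14.2, 6.55 and 23.9 CPM in Spp1-low macrophages, without overlap (2.40 ± 0.22; edgeR's adjusted p = 1.10e-25 and 7.58e-05). Itgax, which encodes the CD11c integrin, had 275, 77.9 and 311 CPM against 86.2, 35.6 and 95.6 CPM and was higher in members of every library (1.78 ± 0.14; edgeR's adjusted p = 3.12e-33 and 8.65e-05). Rnf128, Ksr2, Wfs1, Layn and Procr, the protein C receptor, had log2 differences of 1.97, 1.96, 1.88, 1.83 and 1.73. In OSA 2, Layn (7.79 against 12.2 CPM) and Procr (0 against 6.55 CPM) were lower in members. Rnf128, Ksr2 and Wfs1 were higher in OSA 2 members, at 15.6, 7.79 and 7.79 CPM against 7.49, 4.68 and 6.55 CPM. All 5 passed with all 3 OSA libraries. AA467197 rose by 1.71 and did not pass in that fit (edgeR's adjusted p = 0.102).

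Among the largest falls were the galactose lectin Mgl2 (16.6, 0 and 0.749 CPM in Spp1 macrophages against 84.5, 193 and 82.8 CPM in Spp1-low macrophages, -4.46 ± 0.40; edgeR's adjusted p = 1.40e-13 and 0.00996) and the monocyte genes Plac8 and Ifitm6. Plac8 had 66.2, 109 and 30.7 CPM against 575, 480.3 and 266 CPM, without overlap (-3.02 ± 0.16; edgeR's adjusted p = 7.75e-77 and 4.74e-06). The exchange factor Psd3 and the lectin Chil3 fell by 2.5 and 2.35 on the log2 scale, and the Fc receptor-like Fcrls by 2.15. Chil3 lay at -0.43 after thinning to 2000 UMIs (edgeR's adjusted p = 0.839). Krt14, a keratin of basal epithelium, passed through the Spp1-low macrophages of OSA 3 alone, with 2.07, 0 and 8.61 CPM in Spp1 macrophages against 5.02, 0 and 99.96 CPM, and was not tested with all 3 OSA libraries. The summed level of the monocyte marker list did not separate the classes, at 776, 1145 and 1324 CPM in Spp1 macrophages and 1437, 1226 and 1094 CPM in Spp1-low macrophages. Its genes did not move alike. Most of the sum in Spp1 macrophages came from Hp (391, 537.5 and 876 CPM) and F10 (250.4, 358 and 329 CPM), while Plac8 and Chil3, on the same list, fell.

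Against resident macrophages the contrast was wider. The resident class is defined by Folr2 and the Cd209 genes, which were left out. Of 6761 genes tested with OSA 1 and 3, 1876 passed (27.7%), 895 higher (13.2%) and 981 lower (14.5%) in Spp1 macrophages, and with all 3 OSA libraries 1458 of 6125 passed (23.8%), 671 higher (11.0%) and 787 lower (12.8%). Within 3000 to 10000 UMIs, 997 of 6387 genes passed with OSA 1 and 3 (15.6%), 929 of them among the 1876. The count was 1039 without OSA 1 and 673 without OSA 3. Both comparisons share the same members, so their calls are not independent.

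Among the genes that passed and averaged 5 or more on the log2 CPM scale, the largest rise with more than 3 resident UMIs behind it was Gpnmb, at 3313, 1285 and 2326 CPM in the Spp1 macrophages of OSA 1, 2 and 3 against 66.0, 46.6 and 109 CPM in resident macrophages and 0 in those of control 2. The classes did not overlap (4.99 ± 0.18; edgeR's adjusted p = 4.55e-129 and 1.88e-12). Mmp12, AA467197 and the neutrophil attractant Cxcl3 rested on 3 UMIs each in the resident macrophages of the 3 OSA libraries, and their ratios with counting intervals were 74.7 (25.4 to 364), 31.1 (10.5 to 152) and 30.2 (10.2 to 147.5). Dcstamp, the fusion protein of osteoclasts, held 69 UMIs in the members of the 3 OSA libraries and 0 in their resident macrophages, so no fold is given. Thbs1, the matrix protein thrombospondin, had 66.2, 288 and 105 CPM against 0, 4.05 and 5.52 CPM (4.72 ± 0.49; edgeR's adjusted p = 2.27e-20 and 1.87e-09). F10, coagulation factor X, had 250.4, 358 and 329 CPM against 10.6, 4.05 and 13.8 CPM (4.65 ± 0.31; edgeR's adjusted p = 1.99e-48 and 1.13e-11). Haptoglobin (Hp), cathepsin K (Ctsk), Itgax, the glypican Gpc1, the arginine-synthesis enzyme Ass1 and the cystine importer Slc7a11 completed the leading rises, with log2 differences between 4.28 and 4.98. Ctsk, which had missed the threshold against Spp1-low macrophages, stood at 10.6, 8.10 and 11.1 CPM in resident macrophages and passed here (4.65 ± 0.31; edgeR's adjusted p = 1.79e-47 and 4.38e-09).

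The largest falls at that mean level were led by genes of resident macrophages. Fcna, ficolin A, had 0, 0 and 1.87 CPM in Spp1 macrophages against 407, 356 and 412 CPM in resident macrophages (-7.84 ± 0.35; edgeR's adjusted p = 1.25e-101 and 1.35e-13). Lyve1 had 0, 15.6 and 5.99 CPM against 1700, 1500 and 991 CPM (-7.73 ± 0.26; edgeR's adjusted p = 7.29e-120 and 6.49e-09), and Cd163, the haemoglobin scavenger receptor, 8.28, 0 and 0.749 CPM against 301, 217 and 175 CPM. Cbr2, Mgl2, Clec10a, the chemokines Ccl7, Ccl8 and Ccl12, Plekhg5, the endothelin receptor Ednrb and the leukotriene synthase Ltc4s had log2 differences between -4.55 and -6.99, and each passed with all 3 OSA libraries. On the resident list 11 of 12 genes fell and 0 rose in both fits. The classes were divided by resident macrophage genes, so falls of other such genes carry no independent support. Fcna, Cd163 and Ccl12 held 5, 6 and 4 UMIs in the members of the 3 OSA libraries, against 628, 348 and 212 in resident macrophages.

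Several lists read alike against both other classes and others did not. Lipid-associated genes rose in 13 of 15 with 1 falling, antioxidant genes rose in 10 of 12 with 0 falling, and hypoxia and glycolysis genes rose in 11 of 19 with 2 falling. Apoe, which rose against Spp1-low macrophages, fell against resident macrophages, with 8265, 3754 and 8760 CPM in Spp1 macrophages against 10901, 7296 and 11303 CPM in resident macrophages (-0.31 ± 0.11; edgeR's adjusted p = 0.0238 and 0.00373). The metallothioneins Mt1 and Mt2 and the haem-degrading Hmox1 fell too: Mt1 had 2452, 2321 and 3671 CPM against 5111, 8641 and 8431 CPM (-1.06 ± 0.12; edgeR's adjusted p = 1.40e-16 and 2.59e-06). Vegfa had 192, 156 and 184 CPM against 15.8, 12.2 and 17.9 CPM (3.52 ± 0.29; edgeR's adjusted p = 5.82e-32 and 5.77e-10), and fibronectin and Mmp14 rose by 3.20 and 2.60. Among chemokines 4 rose, the neutrophil attractants Cxcl1, Cxcl2 and Cxcl3 with Cxcl16, and 9 fell. Cxcl2 did not pass with all 3 OSA libraries (edgeR's adjusted p = 0.201). Complement genes fell in 8 of 10, with C1qa at 1732, 662 and 1391 CPM against 4990, 4586 and 5464 CPM, and C3 rose (1.78 ± 0.24; edgeR's adjusted p = 1.32e-12 and 4.35e-07). CD44, the osteopontin receptor, rose by 0.62 (edgeR's adjusted p = 0.0063 and 0.0434), and Itga9 fell. MHC class II genes fell in 7 of 9 here and immediate early and heat shock genes in 15 of 17, with Nr4a1 rising.

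The members were not uniform. Leiden clustering of the 320 barcodes gave 6 subgroups, which are described without a test because every gene took part in the clustering, and which are left unnamed. Subgroup 1 (73 members: 15, 2 and 56 in OSA 1, 2 and 3) was led by Selenop, C1qa, Mrc1 and Apoe, with 3807 CPM of C1qa and 18710 of Apoe and a low Spp1 level of 929 CPM. Subgroup 2 (48 members: 5, 9 and 33, and the control 2 barcode) was led by Il1b at 1292 CPM, the monocyte genes Plac8 and Ly6c2, Thbs1 and Arg1, and it held 9 of the 16 members of OSA 2. Subgroup 3 (68 members: 9, 2 and 57) carried the highest Gpnmb, 6921 CPM, with 3617 CPM of the opsonin Mfge8, 388 of Mmp12 and 722 of Mt3. Its 564 Mt3 UMIs lay in 28 barcodes, and no other subgroup held more than 49 Mt3 UMIs. Haemoglobin transcripts also led subgroup 3, with 1568 CPM of Hbb-bs. That level was 95.1 CPM in its OSA 1 members and 1947 CPM in its OSA 3 members. Only 1 of the 263 members of OSA 3 held 10 or more Hbb-bs UMIs, so few barcodes carry this lead. Over all haemoglobin genes, 2 members of OSA 3 held 20 or more UMIs, up to 2671.

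Subgroup 4 (71 members: 7, 3 and 61) was led by MHC class II genes, with 2654 CPM of H2-Ab1 and 7888 of Cd74, against 93.4 and 375 CPM in subgroup 3. Subgroup 5 (50 members: 4, 0 and 46) carried most Saa3, 1200 CPM, with 988 CPM of Mmp9, 1609 of Hp and 1711 of Pf4. Mt3 and Saa3, the markers named together for the class, thus had their highest levels in different subgroups, with 190.7 CPM of Saa3 in subgroup 3 and 52.2 CPM of Mt3 in subgroup 5. Subgroup 6 (10 members, all OSA 3) was led by S100a9, Acod1, Il36g and G0s2, had 11610 CPM of Spp1 and lacked Csf1r, C1qa, Trem2 and Saa3. Its Lyz2 level was 1610 CPM, against at least 12162 CPM in the other subgroups. Subgroups 1 to 5 were found in OSA 1 and OSA 3, while OSA 2 had no member in subgroup 5. Of the members of OSA 2, 56.2% (29.9 to 80.2) lay in subgroup 2, against 12.5% (4.19 to 26.8) in OSA 1 and 12.5% (8.80 to 17.2) in OSA 3.

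**Figure D5:**
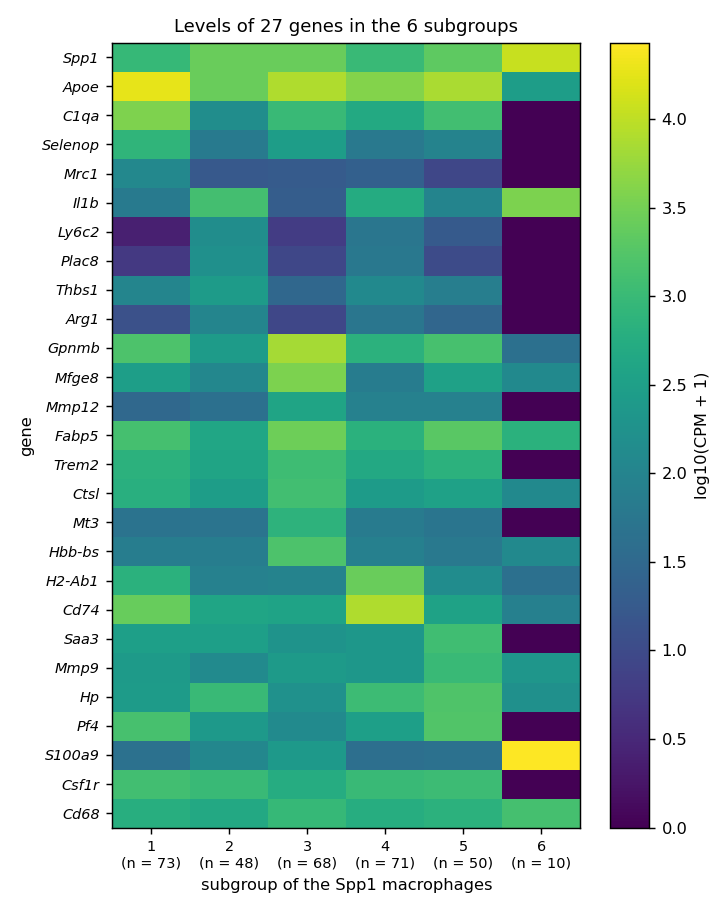
Level of 27 genes, as log10 of CPM plus 1, in the 6 subgroups of the 320 members (columns, with the number of members). Gpnmb, Mfge8 and Mt3 peak in subgroup 3, H2-Ab1 and Cd74 in subgroup 4, Saa3 and Mmp9 in subgroup 5, and S100a9 in subgroup 6, where Csf1r is at 0.

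Spp1 was not confined to the members. They held 861, 164 and 5157 of the 5105, 3680 and 18022 Spp1 UMIs of OSA 1, 2 and 3, and 12 of 1150 in control 2. Outside them, 231, 139 and 502 barcodes of the OSA libraries and 141 of control 2 held at least 2 Spp1 UMIs. Each of those barcodes was matched to the marker list with the largest fraction of its genes detected, whatever their level. The best match was the Schwann cell list for 109, 20 and 31 in OSA 1, 2 and 3 and 110 in control 2. It was the fibroblast list for 30, 24, 162 and 14, and the macrophage list for 39, 17, 202 and 1. Resident macrophages with at least 2 Spp1 UMIs numbered 2, 0 and 17 in the OSA libraries and 0 in control 2.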

How the data were processed

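Droplet-based (10x Genomics) single-cell libraries were deposited as matrices of raw UMI counts per gene and barcode; they were made by the authors with Cell Ranger 9.0.1, per the file headers, on GRCm39 (mm39), per the submitters' processing notes. Barcode lists of all 6 libraries and matrices of OSA 1, OSA 2, OSA 3 and control 2 were used, and 0 matrix columns had no sample. The 4 libraries held 12618 to 15743 barcodes with medians of 3889 to 4879 UMIs, and barcodes with under 300 genes were left out. Binomial intervals (Clopper-Pearson, 95%) cover counting error only.

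Raw counts were summed per library over Spp1 macrophages, Spp1-low macrophages and resident macrophages. Sums were tested within libraries with edgeR 4.0.16 (filterByExpr, TMM, robust quasi-likelihood fit, library as a block), in libraries with at least 20 members of each class, and p-values were adjusted by Benjamini-Hochberg over all genes. CPM are counts of the summed class over its total, without TMM. The SE given with edgeR differences is the absolute log2 difference over the square root of the test's F statistic. It therefore rests on the same borrowed spread as the p-value and is no separate measure of spread. The block is the library itself, since both classes come from the same library. A fit with all 3 OSA libraries was added after the data were seen. The script was tested on simulated counts. Shares were compared by an exact permutation test over libraries. DESeq2 1.42.0, other scalings, filters, thinning of each barcode to 2000 UMIs, a window of 3000 to 10000 UMIs and removal of doublet calls (Scrublet in scanpy 1.11.5; 2.84% to 4.01% of barcodes called, kept otherwise) were alternatives. In fits and class shares after thinning, the rule was applied to the thinned counts. The shares of barcodes with a UMI of a gene after thinning kept the original classes. Endothelial barcodes held at least 2 UMIs of Pecam1 and Cdh5 and 0 of Lyz2. Subgroups came from 1000 variable genes, 15 principal components, 15 neighbours and Leiden clustering at a resolution of 0.6, with all 4 libraries together and no batch correction.

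The genes named are the 12 largest rises and 12 largest falls of each comparison with adjusted p under 0.05, mean log2 CPM of at least 5 and the same direction in both libraries of the fit, and members of 20 gene lists. Of the 24 genes of the glycolysis list 23 were found in the tables. The members and the lists were chosen with earlier results of these data known, so they carry no independent support. Levels are 3′ UMI counts and are not compared between genes.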

Additional observations from a re-analysis of the deposited data

Results flagged for a closer look

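Barcodes that held at least 2 Spp1 UMIs and met every condition except the limit on the endothelial and fibroblast genes Pecam1, Cdh5 and Col1a2 were outside every comparison of the Spp1 macrophages. They numbered 60 in OSA 1, 27 in OSA 2 and 292 in OSA 3, against 2 in control 2, and drew attention because the OSA numbers stand above the control. In each OSA library they outnumbered the members (40, 16 and 263). They held 2425, 2375 and 7792 Spp1 UMIs, against 5 in control 2. Their median depth was 15094, 17298 and 14749 UMIs, against 16664 in control 2, and Scrublet called 3, 3 and 35 of them, against 0 in control 2. Whether they are pairs of cells, macrophages with taken-up transcripts or another cell type was not tested.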

How the results depend on the processing

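Against Spp1-low macrophages, 1093 genes passed with OSA 1 and 3, and the count fell to 648 with 10 counts in every sum, 486 with comparison cells of 0 Spp1 UMIs, 241 with DESeq2, 219 after thinning to 2000 UMIs, 106 with no replicate block and 17 within 3000 to 10000 UMIs. With OSA 2 added it was 425, and on that base 514 with neutrophil transcripts left out, 417 with Scrublet calls left out, 234 after thinning, 187 with DESeq2, 74 within 3000 to 10000 UMIs and 51 with no replicate block. Leaving out OSA 1 or OSA 3 from all 3 gave 114 to 140 genes. Against resident macrophages the main count of 1876 fell to 1102 with no replicate block, 997 within 3000 to 10000 UMIs, 858 after thinning and 627 with DESeq2. With OSA 2 added the count was 1458, and 1131 with no replicate block, 812 within 3000 to 10000 UMIs, 766 with DESeq2 and 532 after thinning, and leaving out OSA 1 or OSA 3 gave 673 to 1039. The fewer genes tested after thinning and with the stricter filter are part of these settings' construction. So are the classes formed anew after thinning and the fewer members in the depth window. No other cause was tested. The no-filter, RLE, library-total, Scrublet and neutrophil settings kept both counts within 1.5 times with OSA 1 and 3. With library totals alone, 40.4% of the genes called against resident macrophages were higher, against 47.7% with TMM, and the median of all genes in the comparison with Spp1-low macrophages lay at -0.10.

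Signs of list genes turned against Spp1-low macrophages as follows, in log2 units. After thinning, Apoe was at -0.22, Clec4e at 0.78, Grn at -0.16, Il1b at 0.16, Timp2 at -0.15 and mt-Cytb at -0.21. After thinning with OSA 2 added, Apoe was at -0.24, Clec4e at 0.74, Grn at -0.31, Il1b at 0.53, Lamp1 at -0.087, Timp2 at -0.39 and mt-Cytb at -0.36. Within 3000 to 10000 UMIs, Gpx1 was at -0.029, Tnfrsf11a at 0.031, mt-Co3 at -0.015 and mt-Cytb at -0.65. In that range with OSA 2 added, Arg1 was at -0.20, Tlr2 at 0.047, Tnfrsf11a at 0.11, mt-Co3 at -0.20 and mt-Cytb at -0.052. Without OSA 1, Ccl6 was at -0.10, Cxcl1 at -0.028, Grn at -0.064, Il1b at 0.17 and Timp2 at -0.058. Without OSA 3, Cxcl1 was at -0.30, Il1b at 0.37, Mmp19 at -0.049, Nlrp3 at 0.041 and mt-Co3 at -0.22. With neutrophil transcripts left out, Clec4e was at 0.27 and Lcn2 at 1.00, and with OSA 2 added 0.20 and 0.72. With OSA 2 and no replicate block, Arg1 was at -0.14 and Il1b at 0.11, and Cxcl1 was at -0.00328 with OSA 2 and DESeq2. The cause was not tested.

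The share differences between OSA and control 2 stayed positive in every alternative run, at 0.454 to 1.60 percentage points of all barcodes and 8.82 to 23.7 points of non-resident macrophages, or 0.184 to 1.04 and 10.3 to 20.8 with 1 OSA library left out. The labels give no pairing of OSA with control libraries, so no paired analysis of the shares was run, and control 2 was the only control matrix analysed here. Leaving out a library from the fit of OSA 1 and OSA 3 was not run, since it leaves no residual degree of freedom, and was done from all 3 OSA libraries. The number of members limits depth most in OSA 2, where 16 barcodes gave 128380 UMIs.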

Other observations

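Marker lists of neighbouring cell types, read over the whole class, gave mixed levels in the Spp1 macrophages. The osteoclast markers summed to 718, 148 and 633 CPM in the Spp1 macrophages of OSA 1, 2 and 3, against 161.5, 69.3 and 293 CPM in Spp1-low macrophages and 58.1, 24.3 and 53.9 CPM in resident macrophages. All 6 were detected in the members of OSA 3, with 1 UMI of Calcr, while Calcr, Ocstamp and Oscar were at 0 in those of OSA 1 and OSA 2. In Spp1-low macrophages, which are more numerous, 5, 4 and 6 of them were detected in OSA 1, 2 and 3. The monocyte markers summed to 776, 1145 and 1324 CPM in Spp1 macrophages and to 26.4, 54.7 and 92.5 CPM in resident macrophages. Most of the sum in Spp1 macrophages came from Hp (391, 537.5 and 876 CPM) and F10 (250.4, 358 and 329 CPM). Ccr2, on the same list, was at 4.14, 0 and 0.749 CPM there. The dendritic list summed to 302, 101 and 317 CPM in Spp1 macrophages against 115.5, 101 and 145 CPM in Spp1-low macrophages. Itgax alone made up 275, 77.9 and 311 CPM of the sums in Spp1 macrophages, and Siglech was at 0 in the members of all 3 OSA libraries. These sums are descriptions, without a test.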
